A study of Homo sapiens with 6 samples.

Results

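The loci of DPPA2, DPPA4, DPPA5 and KHDC3L were read from chromatin accessibility in naive human embryonic stem (nES) cells. Of 171517 peaks in the deposited count table, 57 lay inside these 4 genes or within 50 kb of them by the GENCODE 44 annotation on hg38. They formed a DPPA2-DPPA4 locus of 23 peaks on chromosome 3 and a DPPA5-KHDC3L locus of 34 peaks on chromosome 6. The cells were of the established human line H9, kept naive in tt2iLGö medium, which holds inhibitors of MEK, GSK3 and protein kinase C together with LIF. The 3 dm-αKG libraries came from cells given 4 mM dimethyl α-ketoglutarate for 24 h, a cell-permeable form of the metabolite that DNA and histone demethylases use as co-substrate. The comparison asked how this treatment affects the use of gene regulatory elements. The 3 control libraries are labelled DMSO, and the study's methods describe them as cells given no dm-αKG. All libraries came from 1 line, and cells had been separated from mouse feeder cells on gelatin before seeding. ATAC-seq, in which a transposase cuts open chromatin, gave 13025674 to 26828622 counts in peaks per library, and dm-αKG replicate 1 was the deepest. Levels are given as normalised read counts per peak (raw count scaled for library size with TMM factors), where the median peak of the table stood at 65.34 in control. Adjusted p-values came from edgeR's quasi-likelihood test over all peaks, with the Benjamini-Hochberg adjustment, and a peak was taken to pass below 0.05. In a bulk library, fewer cells with an open site and a less open site in every cell cannot be told apart.

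DPPA2 and DPPA4 are neighbouring paralogues that encode nuclear proteins with a SAP DNA-binding domain. The proteins act as a pair, bind promoters of developmental genes in pluripotent cells, and are tied to the onset of zygotic genome activation. DPPA5 and KHDC3L belong to a family of KH-domain proteins that is expressed in oocytes, early embryos and pluripotent cells. DPPA5 is an RNA-binding protein used as a marker of naive pluripotency, and KHDC3L is a component of the subcortical maternal complex of the oocyte, as is OOEP, which lies in the same cluster.

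Promoter accessibility was read at the peak of highest mean count centred within 1 kb of a transcript start. The DPPA2 peak (ENSG00000163530, chr3:109316418-109316617), the DPPA4 peak (ENSG00000121570, chr3:109337457-109337678), the DPPA5 peak (ENSG00000203909, chr6:73354234-73354434) and the KHDC3L peak (ENSG00000203908, chr6:73362474-73362677) each contained the annotated start of their gene. Their parts upstream of the first exon are printed here from hg38, on the strand of the gene, because the report turns on these 4 promoters. Beside them stand 3 distal peaks upstream of DPPA4 that lost accessibility, chosen as the peaks with an octamer match and the peak with the smallest adjusted p of that locus. Capitals mark matches, on either strand, to the letters searched for OCT (ATGCAAAT), SOX (CATTGTT), KLF (CCACACCC), TEAD (CATTCC) and AP-1 (TGANTCA).
DPPA2 promoter peak, upstream part (chr3:109316518-109316617, minus strand): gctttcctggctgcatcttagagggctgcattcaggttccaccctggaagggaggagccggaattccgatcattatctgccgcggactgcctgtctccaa
DPPA4 promoter peak, upstream part (chr3:109337547-109337678, minus strand): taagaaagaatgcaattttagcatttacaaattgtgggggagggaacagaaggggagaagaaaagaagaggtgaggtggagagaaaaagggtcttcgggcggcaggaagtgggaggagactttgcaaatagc
DPPA5 promoter peak, upstream part (chr6:73354277-73354434, minus strand): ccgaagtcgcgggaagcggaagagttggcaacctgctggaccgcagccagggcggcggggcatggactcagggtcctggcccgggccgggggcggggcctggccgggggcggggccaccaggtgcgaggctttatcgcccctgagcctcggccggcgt
KHDC3L promoter peak, upstream part (chr6:73362474-73362657, plus strand): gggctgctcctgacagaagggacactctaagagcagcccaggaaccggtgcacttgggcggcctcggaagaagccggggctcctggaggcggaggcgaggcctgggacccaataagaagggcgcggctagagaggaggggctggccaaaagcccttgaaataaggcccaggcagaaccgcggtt
DPPA4 upstream peak at 18.3 kb (chr3:109355712-109355913, plus strand): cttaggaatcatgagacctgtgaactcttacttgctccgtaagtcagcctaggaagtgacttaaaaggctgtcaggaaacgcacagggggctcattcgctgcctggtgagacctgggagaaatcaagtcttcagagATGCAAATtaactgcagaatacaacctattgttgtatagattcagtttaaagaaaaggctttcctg
DPPA4 upstream peak at 19.1 kb (chr3:109356516-109356716, plus strand): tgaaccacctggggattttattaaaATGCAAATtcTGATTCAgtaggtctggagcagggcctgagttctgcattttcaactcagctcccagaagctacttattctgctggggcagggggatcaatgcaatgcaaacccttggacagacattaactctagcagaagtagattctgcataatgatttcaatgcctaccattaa
DPPA4 upstream peak at 32.1 kb (chr3:109369585-109369786, plus strand): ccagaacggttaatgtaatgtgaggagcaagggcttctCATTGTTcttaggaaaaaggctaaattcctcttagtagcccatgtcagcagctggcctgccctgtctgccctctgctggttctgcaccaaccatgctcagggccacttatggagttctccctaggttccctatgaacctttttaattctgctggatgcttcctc

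The printed part of the DPPA5 promoter had 75.9% G and C and that of KHDC3L 64.7%, against 57.0% for DPPA2 and 46.2% for DPPA4. None of the 4 promoter peaks held any of the searched letters in the 200 bp around its centre, which says only that these letters are not in the window. The octamer was found in 2 of the 57 peaks, both upstream of DPPA4 and both printed above, and in 3915 of all 171517 peaks. The SOX letters were in 2 locus peaks and 2.43% of all peaks, the KLF letters in 2 and 4.26%, the TEAD letters in 6 and 14.6%, and the AP-1 letters in 4 and 6.33%. The octamer and AP-1 letters in the peak at 19.1 kb lay next to each other without overlapping. Median G and C content over these 200 bp was 49.0% in the DPPA2-DPPA4 locus and 59.2% in the DPPA5-KHDC3L locus, against 55.5% in all peaks.

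The promoters of the 4 genes did not move together. The DPPA4 promoter lost accessibility with dm-αKG, while DPPA2, DPPA5 and KHDC3L gave no change that passed the test.

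The DPPA4 promoter peak held 155, 160 and 174 normalised counts in the controls and 125, 98.8 and 106 with dm-αKG. All 3 dm-αKG libraries lay below all 3 controls. The means were 162.9 ± 9.75 and 109.9 ± 13.4 (SD, n = 3), a log2 fold change of -0.54 ± 0.14 (SE) with an adjusted p of 0.004. The peak passed under every alternative fit and without any one library, with log2 fold changes from -0.66 to -0.47. A second peak at this promoter, chr3:109337726-109337925, contained the start of the divergent long noncoding RNA ENSG00000289358. It went from 88.87 ± 13.9 to 77.15 ± 2.90, with a log2 fold change of -0.23 and an adjusted p of 0.415, and its groups overlapped.

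The DPPA2 promoter was among the most open sites of the table, at percentile 99.8 of mean level. Its peak held 1055, 992 and 1052 normalised counts in control and 927, 1034 and 1120 with dm-αKG. The groups overlapped, and the log2 fold change was -0.02 ± 0.06 with an adjusted p of 0.893. Within each library, the DPPA4 promoter stood at 0.147, 0.162 and 0.165 of the DPPA2 promoter in control and at 0.135, 0.0955 and 0.0949 with dm-αKG. The ratio was lower in all 3 dm-αKG libraries, a log2 difference of -0.56, with a two-sided exact permutation p of 0.1, the smallest that 3 against 3 libraries can give. dm-αKG replicate 1 lay nearest to the controls, and without it the log2 difference was -0.73.

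The DPPA5 promoter held 269, 302 and 243 normalised counts in control and 301, 282 and 248 with dm-αKG, with overlapping groups. Its log2 fold change was 0.04 ± 0.10 with an adjusted p of 0.842. The KHDC3L promoter held 256, 238 and 244 in control and 255, 263 and 275 with dm-αKG, where only dm-αKG replicate 1 fell inside the control range. Its log2 fold change was 0.10 ± 0.10 with an adjusted p of 0.56. The KHDC3L to DPPA5 ratio was 0.95, 0.79 and 1.01 in control and 0.848, 0.932 and 1.11 with dm-αKG, which did not separate the groups (exact permutation p = 0.8). In order of control level the promoters ran DPPA2, DPPA5, KHDC3L and DPPA4, and the control values of DPPA5 and KHDC3L overlapped. Counts were compared between peaks of nearly equal width (200 to 222 bp).

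**Figure D1:**
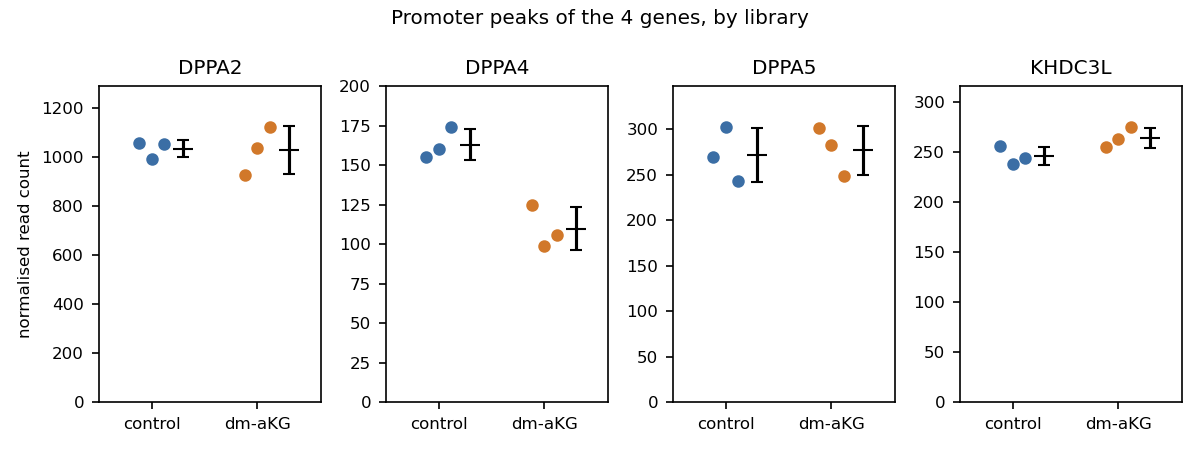
Normalised read counts of the promoter peak of each of the 4 genes, with 1 point per library and the mean ± SD (n = 3) as a bar beside the points, on axes that start at 0. The DPPA4 points with dm-αKG, at 98.8 to 125, all lie below the control points at 155 to 174, while the groups overlap for DPPA2, DPPA5 and KHDC3L.

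**Figure D2:**
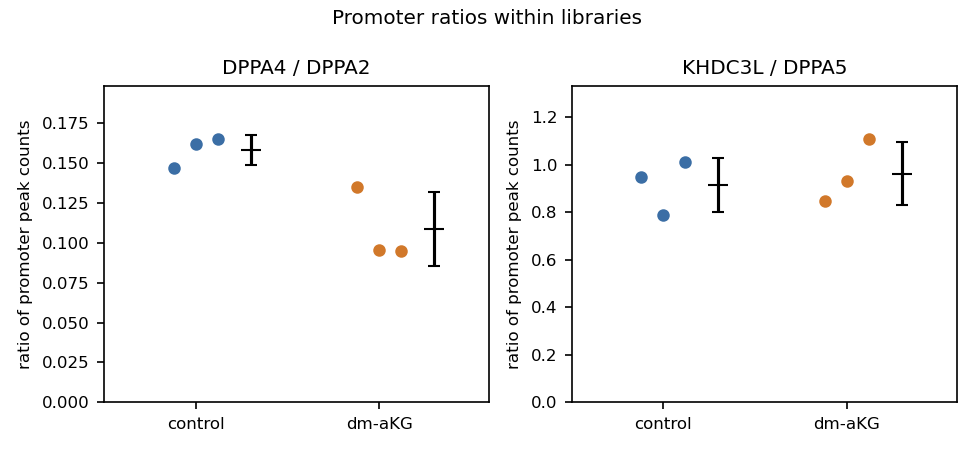
Ratio of promoter peak counts within each library, DPPA4 over DPPA2 on the left and KHDC3L over DPPA5 on the right, with 1 point per library and the mean ± SD (n = 3). The DPPA4 ratio is 0.147 to 0.165 in control and 0.0949 to 0.135 with dm-αKG, and the KHDC3L ratios overlap.

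Over all 57 peaks, 12 were less accessible with dm-αKG and 3 more accessible at an adjusted p below 0.05, and 42 did not pass. Across the count table as a whole, 10.5% of peaks passed as less and 7.43% as more accessible. The losses were unevenly placed. The DPPA2-DPPA4 locus held 11 of the 12, or 47.8% of its peaks, with 1 gain, while the DPPA5-KHDC3L locus held 1 loss and 2 gains among 34 peaks, both under the shares of the whole table. The median log2 fold change was -0.33 over the first locus and -0.04 over the second, against 0.01 over all peaks. The count of losses was 7 when control replicate 2 was left out and 6 when dm-αKG replicate 1 was. The count of gains was 0 when control replicate 3 or dm-αKG replicate 1 was left out, and 1 when dm-αKG replicate 2 was. At those settings with 0 gains, 4 and 2 peaks respectively were more accessible at an unadjusted p below 0.05. By DESeq2, 7 losses and 0 gains passed, with 3 gains at an unadjusted p below 0.05. Of all 171517 peaks, 52646 had an unadjusted p below 0.05 by edgeR with all libraries, counting both directions.

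All 3 dm-αKG libraries lay below all controls in 10 of the 23 peaks of the DPPA2-DPPA4 locus and above them in 3. In the DPPA5-KHDC3L locus these counts were 8 and 2 of 34. Over the table the shares were 16.9% below and 15.5% above. At the stricter call, which asked for a log2 fold change beyond 1 in size at an adjusted p under 0.01 and which 1.96% of all peaks met as losses and 0.782% as gains, there was 1 loss and 0 gains in the 57 peaks. At an unadjusted p below 0.05, 0 peaks gained more than 1 on the log2 scale by edgeR or by DESeq2. The strict loss was no longer called without control replicate 1 or 2 or without dm-αKG replicate 1 or 2 (0 peaks each), and 1 strict gain appeared without dm-αKG replicate 3.

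Summed over its peaks, the DPPA2-DPPA4 locus held 3385, 3457 and 3297 normalised counts in control and 2868, 2930 and 2998 with dm-αKG, so the groups were separate. The log2 difference was -0.20, with an exact permutation p of 0.1. The DPPA2 promoter peak, which did not pass, made up 1033 of the mean sum of 3380 in control and 1027 of 2932 with dm-αKG. The DPPA5-KHDC3L locus held 6132, 6055 and 6037 in control and 5859, 5868 and 5767 with dm-αKG, also separate. Its log2 difference was -0.06, with the same permutation p of 0.1. The ratio of the first sum to the second compares the loci within a library. This comparison was added after the data were seen, so its p is descriptive. It was 0.552, 0.571 and 0.546 in control and 0.49, 0.499 and 0.52 with dm-αKG, a log2 difference of -0.15, again with the groups separate and the smallest p possible, 0.1.

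**Figure D3:**
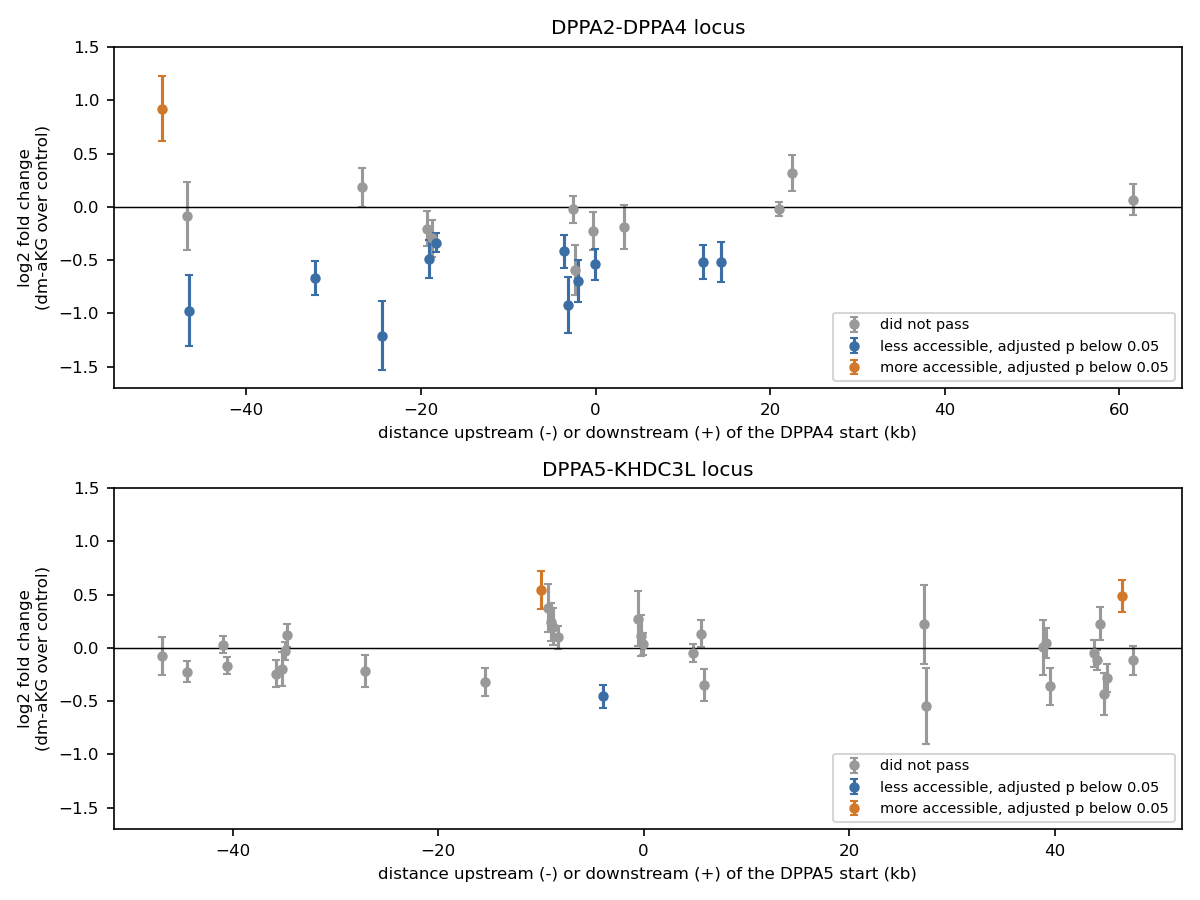
Log2 fold change ± SE of every peak of the DPPA2-DPPA4 locus (top, 23 peaks) and the DPPA5-KHDC3L locus (bottom, 34 peaks) against the distance in kb from the DPPA4 or DPPA5 start, with upstream to the left. Blue points passed as less accessible and orange points as more accessible at an adjusted p below 0.05, grey points did not pass, and 11 of the 12 blue points lie in the top panel.

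Upstream of DPPA4, the annotation gives the body of ENSG00000289358, a long noncoding RNA that starts next to the DPPA4 promoter and runs away from it. From 1 kb to 50 kb upstream of the DPPA4 start there were 15 peaks, of which 8 lost and 1 gained accessibility, with a median log2 fold change of -0.42. The shares over all peaks were 10.5% for losses and 7.43% for gains. Several of the 15 lay close together, so they need not be separate sites. The remaining 8 peaks of the locus held 3 losses, the DPPA4 promoter among them, and a median of -0.21. The peaks described next are grouped by position, a grouping made after the values were seen, and are described without a test of the group.

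The closest group lay 2 to 4 kb upstream of the DPPA4 start and held 5 peaks, 3 of them less accessible. At chr3:109339393-109339786 the controls held 86.8, 84.7 and 102 normalised counts and the dm-αKG libraries 66.0, 47.5 and 49.4. The groups were separate, with a log2 fold change of -0.70 ± 0.19 and an adjusted p of 0.0062, which held under every alternative fit and without any one library. At chr3:109340630-109340829 the values were 51.0, 63.3 and 43.7 against 25.8, 28.2 and 31.4. Here too no dm-αKG library reached a control, with a log2 fold change of -0.92 ± 0.26 and an adjusted p of 0.00701, which missed the threshold without control replicate 2 (0.0892) or dm-αKG replicate 1 (0.0564). The third, chr3:109341016-109341217, had the largest p of those that passed and fell outside the naming rule, at a log2 fold change of -0.42 and an adjusted p of 0.0481. It missed the threshold without control replicate 1 or 2 or without dm-αKG replicate 1 or 2 (adjusted p 0.124 to 0.242), with DESeq2 (0.138), with total-count scaling (0.0593) and with the replicate number as a block (0.0542). Between these sites, chr3:109340077-109340276 was the most open peak of the group and held 174, 182 and 170 against 186, 155 and 174, with a log2 fold change of -0.02 ± 0.13 and an adjusted p of 0.926. This peak, singled out after its values were seen, was the one with 2 AP-1 matches.

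A second group of 4 peaks stood 18 to 20 kb upstream of DPPA4, and the peaks with the octamer were the 2 of them that passed. The more open, chr3:109355712-109355913, held 417, 431 and 381 normalised counts in control and 308, 355 and 320 with dm-αKG. The groups did not overlap, and the log2 fold change was -0.33 ± 0.09 with an adjusted p of 0.00413, or 0.0623 without dm-αKG replicate 1. At chr3:109356516-109356716 the controls held 114, 129 and 89.9 and the dm-αKG libraries 64.5, 108 and 71.8. These groups overlapped through dm-αKG replicate 2, and the log2 fold change of -0.49 ± 0.18 (adjusted p 0.0406) missed the threshold without control replicate 1 or 2 or without dm-αKG replicate 1 or 3 (adjusted p 0.0797 to 0.35) and with DESeq2 (0.17). The other 2 peaks of the group had log2 fold changes of -0.30 and -0.20 and did not pass.

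Farther upstream, 6 peaks held 3 losses and the only gain of the locus. The peak with the smallest adjusted p of the locus, chr3:109369585-109369786 at 32.1 kb, held 138, 143 and 125 normalised counts in control and 73.9, 92.4 and 95.8 with dm-αKG. The groups were far apart, with a log2 fold change of -0.67 ± 0.16 and an adjusted p of 0.00129, which held under every alternative and without any one library. It carried 1 of the 2 SOX matches of the loci, marked in its sequence above.

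The largest fold change belonged to a weak peak, chr3:109361861-109362060 at 24.4 kb, with 35.8, 42.7 and 40.1 normalised counts in control and 12.9, 11.5 and 29.9 with dm-αKG. Raw counts were 40, 52 and 33 against 18, 9 and 20, so its precision is limited by counting. The groups did not overlap, and the log2 fold change of -1.21 ± 0.33 (adjusted p 0.00442) made it the strict call named above. Without dm-αKG replicate 1 the adjusted p was 0.0721. At chr3:109383965-109384165, 46.5 kb upstream, the values were 31.3, 29.6 and 42.5 against 23.7, 14.1 and 10.5. The log2 fold change was -0.97 ± 0.33 with an adjusted p of 0.0284, which missed the threshold without control replicate 1 or 3 or without dm-αKG replicate 2 or 3 (adjusted p 0.0541 to 0.13) and with DESeq2 (0.0899).

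The gain, chr3:109387068-109387267 at 49.6 kb, held 22.4, 20.6 and 17.0 normalised counts in control and 47.3, 38.5 and 25.4 with dm-αKG. All dm-αKG libraries were higher, with a log2 fold change of 0.92 ± 0.31 and an adjusted p of 0.0246. It missed the threshold without control replicate 2 or 3 or without dm-αKG replicate 1 or 2 (adjusted p 0.057 to 0.253) and with DESeq2 (0.0948), and its raw counts were 14 to 66.

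Between the DPPA2 promoter and the DPPA4 start, 2 of 3 peaks passed as losses, both in the space between the genes. At chr3:109325124-109325461, 8.78 kb upstream of DPPA2 and past the 3′ end of DPPA4, the controls held 121, 136 and 120 normalised counts and the dm-αKG libraries 86.8, 84.7 and 92.8. The groups were separate, with a log2 fold change of -0.52 ± 0.16 and an adjusted p of 0.0147, or 0.0508 to 0.0944 without control replicate 2 or without dm-αKG replicate 1 or 2, and 0.0505 with DESeq2. At chr3:109323059-109323274, 6.65 kb upstream of DPPA2, the values were 106, 116 and 61.9 against 67.4, 75.7 and 58.4. Control replicate 3 fell among the dm-αKG libraries, and the adjusted p of 0.0438, at a log2 fold change of -0.52 ± 0.19, rose to 0.0501 or more without control replicate 1 or 2 or without any 1 dm-αKG replicate (up to 0.325). It was also above the threshold with DESeq2 (0.174), limma-voom (0.0543) and total-count scaling (0.0522). Inside DPPA2 and downstream of it, 2 peaks had log2 fold changes of 0.32 and 0.07 and did not pass. The plot of passing peaks shows these values by library.

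**Figure D4:**
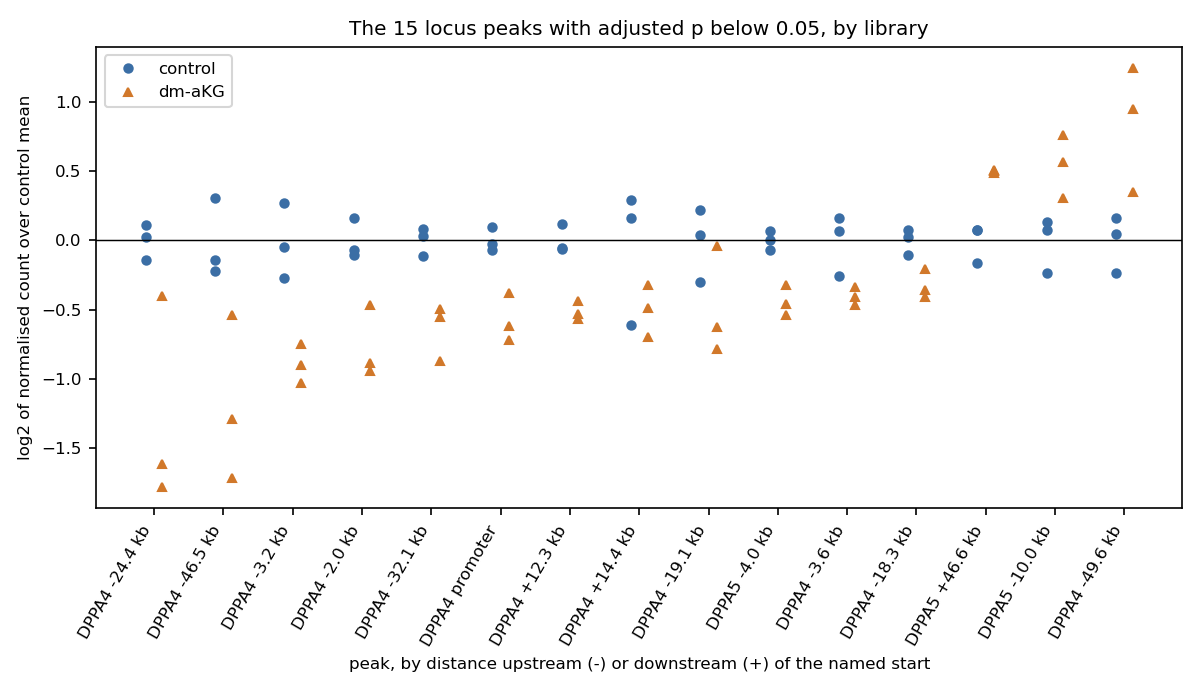
Log2 of each library's normalised count over the control mean for the 15 locus peaks with an adjusted p below 0.05, ordered by fold change, with circles for control and triangles for dm-αKG and each peak named by its distance in kb from the DPPA4 or DPPA5 start (minus is upstream). Circles and triangles overlap at 2 of the peaks, 14.4 kb downstream and 19.1 kb upstream of the DPPA4 start.

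At the DPPA5-KHDC3L locus the 3 peaks that passed were scattered. The single loss, chr6:73358163-73358370, lay in the space between both genes, 3990 bp upstream of the DPPA5 start and 4392 bp upstream of the KHDC3L start. It held 298, 285 and 271 normalised counts in control and 196, 207 and 228 with dm-αKG. No dm-αKG library reached the controls, and the log2 fold change was -0.46 ± 0.11 with an adjusted p of 0.000982, the smallest of all 57 peaks. The call held under every alternative and without any one library. The promoters on either side of it, described above, did not pass.

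From the KHDC3L promoter to just past the gene's 3′ end there were 5 peaks, a grouping made after the values were seen, with log2 fold changes of 0.10 to 0.54, of which 1 passed. This was chr6:73364158-73364370, whose 5′ edge covers the end of the last exon. It held 78.7, 75.6 and 60.7 normalised counts in control and 106, 121 and 88.3 with dm-αKG, separate groups with a log2 fold change of 0.54 ± 0.18 and an adjusted p of 0.0211. It missed the threshold without control replicate 3 or without dm-αKG replicate 1 or 2 (adjusted p 0.0735 to 0.127) and with DESeq2 (0.0726). The 3 peaks within 1 kb of the DPPA5 start had log2 fold changes of 0.04, 0.12 and 0.27, and none passed.

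The remaining gain lay in an intron of KHDC1, a further KH-domain gene, at chr6:73307596-73307801. Its controls held 103, 103 and 87.5 normalised counts and its dm-αKG libraries 137, 139 and 138. All dm-αKG libraries were higher, with a log2 fold change of 0.49 ± 0.15 and an adjusted p of 0.0171, or 0.0755 with control replicate 3 left out, 0.057 with dm-αKG replicate 1 left out and 0.0508 with DESeq2. It was 1 of 14 peaks more than 5 kb downstream of the DPPA5 start, on the KHDC1 side, of which 0 passed as losses. On the side of OOEP and DDX43, an RNA helicase gene, 10 peaks ranged from -0.32 to 0.12 and 0 passed in either direction. In 5 of these 10 all dm-αKG libraries were below all controls, against 16.9% of all peaks of the table. Grouping by side was also made after the values were seen, without a test of the groups. The peak of highest mean count of this locus, chr6:73349418-73349628, lay 4.75 kb downstream of the DPPA5 start, beyond the gene's end. It held 445, 480 and 511 in control and 455, 455 and 479 with dm-αKG, with a log2 fold change of -0.05 ± 0.08 and an adjusted p of 0.731.

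The authors' lists of reproducible peaks, 1 per treatment, were set beside the counts, although both come from the same reads. Of the 57 peaks, 44 held a summit of both lists, 8 only of the control list and 5 only of the dm-αKG list. In the DPPA2-DPPA4 locus 4 peaks were in the control list alone, and 3 of them, at 2.04 kb, 3.18 kb and 24.4 kb upstream of DPPA4, were among the losses. The gain at 49.6 kb was in the dm-αKG list alone. In the DPPA5-KHDC3L locus none of the 4 peaks found only in the control list passed.

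Some peaks share sequence with other places in the genome. The study's methods name the ENCODE pipeline with mostly default settings. They do not spell out how reads with several possible positions were filtered. A run of 32 bases with at least 1 further exact copy in hg38 was present in 8 of the 12 peaks that lost accessibility, in 0 of the 3 that gained and in 9 of the 42 that did not pass. Of those 8, 7 lay in the DPPA2-DPPA4 locus, and the share of all peaks with such a run was not computed. Over those 8 losses the share of runs with a copy went from 7.57% to 68.6%. Reads were 61-bp pairs, longer than a run. Runs with a copy made up 103 of the 169 in the peak at 24.4 kb and 38 of the 177 in the peak between DPPA5 and KHDC3L. The DPPA4 promoter peak and the peaks at 18.3, 19.1 and 32.1 kb upstream had none. Within the DPPA2-DPPA4 locus the median log2 fold change was -0.52 over 10 peaks with a copy and -0.20 over 13 without, where 4 of the 13 passed as losses and 1 as a gain. The part of repeated sequence in these results was not tested.

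Promoters of related genes were read from lists fixed for this work. Of 9 KH-domain and maternal complex genes, 8 had a promoter peak (NLRP5 had none), with a median log2 fold change of 0.08. By the main edgeR fit and by DESeq2, 0 passed in either direction. There was 1 gain by limma-voom, with loess or total-count scaling, or without dm-αKG replicate 3. The OOEP promoter peak was also among the peaks of the DPPA5-KHDC3L locus. Of the 8, 1 was lower and 2 were higher at an unadjusted p below 0.05, by edgeR and by DESeq2. In the whole table, 52646 of 171517 peaks had an unadjusted p below 0.05 by edgeR, counting both directions. The 4 with the highest mean over all libraries were NLRP7 (452.0 in control and 513.7 with dm-αKG, log2 fold change 0.18), OOEP (454.2 and 461.1, 0.03), TLE6 (409.5 and 471.9, 0.22, adjusted p 0.0549) and NLRP2 (454.1 and 409.1, -0.14). OOEP and NLRP7, like KHDC3L, act in the oocyte and early embryo. Of 7 genes of genome activation, 3 had a promoter peak, at 36.51 to 75.17 in control with a median log2 fold change of -0.29, and 0 passed (0 also at an unadjusted p below 0.05, by edgeR and DESeq2). These were TPRX1, ARGFX and ZSCAN5B, with log2 fold changes of -0.50, -0.29 and -0.01, and ZSCAN4, DUXA, LEUTX and KDM4E had none.

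Of 12 naive pluripotency genes, 11 had a promoter peak, and 2 lost and 1 gained accessibility, with a median log2 fold change of -0.07. The shares over all peaks were 10.5% as less and 7.43% as more accessible, so these counts of few promoters are not a result about the list. KLF17, a transcription factor of the naive state, held 454, 376 and 383 normalised counts in control and 299, 334 and 298 with dm-αKG (log2 fold change -0.39, adjusted p 0.001). ZFP42, a zinc finger gene also known as REX1, held 631, 643 and 674 against 551, 572 and 564 (-0.21, adjusted p 0.0369). SUSD2, a surface marker of naive cells, held 751, 723 and 765 against 943, 934 and 933 (0.33, adjusted p 0.000108). In each of these the groups were separate. KLF5 (1042 in control), TBX3 (762.9), ALPG (683.9) and NANOG (520.6) did not pass, with log2 fold changes from -0.10 to 0.01. By DESeq2, 1 loss and 1 gain of this list passed. The list's losses were 1 with total-count scaling or with control replicate 2 or 3 or dm-αKG replicate 1 or 2 left out, and 0 with control replicate 1 left out, where 2 had an unadjusted p below 0.05. Over the lists together 3 promoters passed, and 1 did when control replicate 1 was left out.

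Marker promoters were checked for the cell types the wells could hold, as accessibility alone. Naive markers had a promoter peak in 4 of 5 genes at 200.1 to 746.4 in control, and DPPA3, a defining naive gene, had none. Primed markers had one in 5 of 5 genes (111.8 to 468.6), trophoblast markers in 4 of 5 (132.7 to 471.4) and primitive endoderm markers in 4 of 4 (120.1 to 188.1). The primed and trophoblast ranges overlapped the naive one, and every set had open promoters. These levels therefore do not tell which cell types were present. Among the 5 primed markers the median log2 fold change was -0.03, and SFRP2 and DUSP6 lost accessibility (log2 fold changes -0.42 and -0.30, adjusted p 0.0267 and 0.00928). ZIC2, THY1 and CD24 stood at 0.21, 0.01 and -0.03 and did not pass. None of the 5 passed by DESeq2, or by edgeR after leaving out control replicate 1 or either of dm-αKG replicates 1 and 2, and 1 did after leaving out control replicate 2, with 2 at an unadjusted p below 0.05 in each of these. Of the trophoblast and primitive endoderm markers, 0 passed by edgeR or DESeq2, also at an unadjusted p below 0.05. For all peaks of the table, the shares that passed were 10.5% as less and 7.43% as more accessible. An unadjusted p below 0.05 by edgeR was found in 52646 of 171517 peaks. Whether a change in cell types had a part in the results at these loci was not tested.

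By likeness of level, measured as the Euclidean distance of log2 normalised counts over the 6 libraries among 22 list promoters, DPPA2 was nearest to KLF5 (0.248), SUSD2 (0.866) and TBX3 (1.05). DPPA5 was nearest to TFCP2L1 (0.28), ESRRB (0.487) and KHDC1L (0.658), and KHDC3L to ESRRB (0.327), TFCP2L1 (0.366) and KHDC1L (0.611), so both genes of this locus had the same 3 neighbours. For DPPA4 the nearest were PADI6 at 1.51, DNMT3L at 1.86 and ZBED3 at 2.01. The distance takes in both groups, so a change with dm-αKG adds to it. In control the DPPA4 and PADI6 means were 162.9 and 176.9, and with dm-αKG they were 109.9 and 196.3.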

How the data were processed

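ATAC-seq was analysed in 6 libraries of nES cells, 3 control and 3 dm-αKG, grouped by the treatment in the labels. The authors trimmed 61-bp paired reads, aligned them to hg38 with Bowtie 2, filtered them and called peaks with MACS2 through the ENCODE pipeline, in 1 run per treatment. The deposited lists of reproducible peaks give fold enrichment as a ratio over background, a score, and p- and q-values as −log10; of these only summit positions and fold enrichment were read. The authors cut peaks to 200 bp around the summit, merged both lists and deposited raw read counts per peak (bedtools 2.28.0), with no normalization. Reads carry no molecular identifiers, so counts are not independent molecules.

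The test of the counts used edgeR 4.0.16 under R 4.3.3 (TMM, quasi-likelihood, treatment as the only term, all 171517 peaks). SE is the size of the log2 fold change over the square root of F. Alternatives were DESeq2 1.42.0, limma 3.58.1 with voom, other scalings, at least 10 counts in every library, the replicate block, windows of 10 and 100 kb, and each library left out. Single values were tested by two-sided exact permutation. Fits were tested on simulated counts, with 50 peaks changed at each fold. The main fit found 35 of 50 at 2-fold, 39 at 3-fold, 48 at 4-fold and 50 at 6-fold, with 13 false calls. A peak that did not pass is therefore not shown to be unchanged. The labels do not say whether replicates were separate cultures. The study's methods call them biological replicates and state that the ATAC-seq was performed once. The p-values therefore rest on the variation between these libraries, not between repeated experiments.

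The 4 genes and all lists were chosen with earlier results of these data known. The naming rule took each gene's promoter peak, the 14 locus peaks of smallest p among those that passed, the most open peak of each locus, 3 promoters of most similar level, list genes that passed and up to 4 others per list by level. Motifs were searched with 0 mismatches. Exact copies of 32-base runs were counted on 24 chromosomes. The sequences of some peaks are not reported here.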

Additional observations from a re-analysis of the deposited data

How the results depend on the processing

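The DPPA4 promoter and the peaks at 2.04 kb and 32.1 kb upstream of it, and the peak between DPPA5 and KHDC3L, passed under every alternative fit and without any one library; no named peak that passed changed direction. Against 12 losses and 3 gains, DESeq2 gave 7 and 0 (3 gains at an unadjusted p below 0.05), and a 10 kb window, with 25 peaks, gave 7 and 1. The strict loss (1 peak) became 0 with DESeq2, with at least 10 counts in every library (which removes that peak) and in the 10 kb window, and 2 among the 83 peaks of a 100 kb window. The cause of the differences between tools was not tested. The summed log2 difference of the DPPA2-DPPA4 locus was -0.26 over 33 peaks in the 100 kb window, and that of the DPPA5-KHDC3L locus was -0.0435 with total-count scaling and -0.0227 over 13 peaks in the 10 kb window.

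Leaving out 1 library at a time gave 6 to 12 losses, 0 to 3 gains, 0 to 1 strict losses and 0 to 1 strict gains, and 1 to 4 list promoters against 3. The locus sums ran from -0.22 to -0.19 and from -0.06 to -0.05. Their ratio, a comparison added after the data were seen, ran from -0.17 to -0.13. The DPPA4 to DPPA2 ratio ran from -0.73 to -0.47 and the KHDC3L to DPPA5 ratio from -0.03 to 0.16. With all peaks within 1 kb of a start summed and all libraries kept, these promoter ratios differed by -0.42 and 0.11.

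The counts gave no sign that equal replicate numbers pair the libraries. Deviations of same-numbered libraries correlated at -0.02, -0.00090 and 0.01, and not every library correlated best with its own number. Counting noise in single peaks lowers such correlations, so they cannot exclude a pairing. With the replicate block, 11 losses, 3 gains, 1 strict loss, 0 strict gains and 3 list promoters passed, the locus sums differed by -0.20 and -0.06, and the only call lost among the locus peaks that passed was the loss at 3.57 kb upstream of DPPA4 (adjusted p 0.0542). Depth limits the peaks under about 50 normalised counts, where raw counts per library fell to 7.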
